A study of Mus musculus with 7899 samples.

Results

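The comparison described here is the step from day 5.5 to day 6.5 of gestation (G5.5 and G6.5) in mouse pancreatic β cells. Its members are the cells whose plate columns carry the names of those days: 85 and 81 cells for the replicates of G5.5, and 61 and 80 cells for those of G6.5. That is 307 of the 3481 cells of the pregnancy table, and of 7897 plate-sequenced cells in the series. The reads of each replicate were summed over its cells, which gave 4 libraries among the 35 of the table. All 4 came from female C57BL/6J mice on standard diet, with no transgene, drug or other treatment named for them. The labels call the replicates biological and do not say how many animals went into each, nor which markers were used in the sort. The study followed β cells of pregnancy, measured cell by cell with Smart-seq3xpress, a full-length method run in 384-well plates. Levels are in CPM, read counts scaled to a common library total with edgeR's TMM factors, and G3.5 and G8.5, also 2 libraries each of the same strain, sex and diet, set the step in its course.

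In gestation the maternal β cell mass adapts to growing insulin demand. Prolactin and placental lactogens bind the prolactin receptor, which signals through the kinase JAK2 and the transcription factor STAT5. Known targets in islets include the feedback inhibitors Cish and Socs2 and Tph1, the enzyme that makes serotonin from tryptophan outside the brain, and serotonin in turn acts on islet cells in pregnancy.

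The libraries held 66254446 and 92366773 reads for G5.5, and 50928768 and 69740693 for G6.5, within a range of 25623339 to 181405413 over the 35 libraries. Insulin transcripts took 56.5% and 56.1% of the reads in G5.5, 59.1% in G6.5 replicate 1 and 46.3% in G6.5 replicate 2, the lowest of all 35 libraries. That library also had the highest TMM factor of the 35, 1.23, by which its CPM values were divided. The β-cell label fits the insulin shares, since Ins2 alone stood between 270625 and 446155 CPM in the 4 libraries. The summed stromal markers were under 1 CPM. The 7 ductal markers summed to 291.1 and 312.96 CPM in G5.5 and to 134.3 and 185.3 CPM in G6.5, most of it from Krt7, while Sox9 and Krt19 of the same list were at 0.299 CPM or less, and their part in the results was not tested. Markers of other islet endocrine cells were present and uneven: the summed δ-cell markers were 299.8 and 290.3 CPM in G5.5, 4278 CPM in G6.5 replicate 1 and 201.3 CPM in G6.5 replicate 2. In that G6.5 replicate 1, 5 cells held 96.2% of the Sst reads, and 4 cells had more than 5% of their reads in glucagon, somatostatin and pancreatic polypeptide genes. The summed α-cell markers ran from 2069 CPM in G6.5 replicate 2 to 5011 CPM in G6.5 replicate 1, with G5.5 between them. The 2 PP-cell markers, Ppy and Pyy, summed to 476.6 and 490.1 CPM in G5.5 and to 1511 and 655.3 CPM in G6.5. In G3.5 they summed to 1036 and 2134 CPM, and neither was called between G5.5 and G6.5. Summed immune markers were 49.5 and 46.1 CPM in G5.5 and 87.7 and 114.4 CPM in G6.5. None of the 8 immune markers tested was called, and their part in the results below was not tested. A lower sum over cells can mean fewer cells with a transcript or less of it in each cell, and the sums alone cannot tell these apart.

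Between G5.5 and G6.5 280 of 15373 genes (1.82%) passed edgeR's quasi-likelihood test at an adjusted p under 0.05. Of these 164 (1.07%) were higher in G6.5 and the rest (0.755%) lower, and 60 and 30 of them by at least 2-fold. The steps on either side had fewer: 9 genes (0.0585%) passed between G3.5 and G5.5, and 8 (0.052%) between G6.5 and G8.5. The called genes were not flat from G3.5 to G5.5, where most had the opposite sign. The median log2 fold change in that earlier step was -0.38 for genes called higher in G6.5 and 0.37 for those called lower. Both steps use the G5.5 libraries, so a low or high G5.5 enters both. The count for the step to G6.5 depended on the libraries used. It was 83 or 17 with the first or the second G5.5 library left out, and 65 or 245 with the first or the second G6.5 library left out. With the 4 libraries fitted alone it was 74. Of the 53 named genes that were called, 5 kept the call whichever library was left out: Prlr, Chga, Pcsk1n, Phgdh and Slc7a5. None of the 53 changed direction in any of the settings tried.

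The 4 genes taken as markers of the gestational program were named for this comparison, with earlier results of these data known. All were higher in both G6.5 libraries than in either G5.5 library, and 2 of the 4 passed the test. Tph1 (ENSMUSG00000040046, chromosome 7, 46644641 to 46672537, minus strand of GRCm38) was at 0.657 and 1.39 CPM in G5.5 and at 8.76 and 5.31 CPM in G6.5. It had been at 0.841 and 0.541 CPM on day 0 (G0) and at 0.588 and 0.888 CPM in G3.5, and reached 30.7 and 29 CPM in G8.5. Its G6.5 libraries thus sat between the early days and G8.5, with no overlap on either side. The log2 fold change from G5.5 to G6.5 was 2.74 (SE 0.69, adjusted p = 0.032), and that from G6.5 to G8.5 was 2.10 (SE 0.62, adjusted p = 0.16). Leaving out the first or the second G5.5 library gave an adjusted p of 0.246 or 0.122 for Tph1, and leaving out G6.5 replicate 1 gave 0.211. With the 4 libraries fitted alone Tph1 also missed, at 0.0567.

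Fmo1 (ENSMUSG00000040181, chromosome 1, 162829561 to 162866610, minus strand) encodes a flavin-containing monooxygenase that oxidises nitrogen and sulfur groups. Its level was 20.4 and 39.1 CPM in G0, 47.2 and 48.5 CPM in G3.5 and 56.4 and 57.5 CPM in G5.5. The fitted change from G3.5 to G5.5 was 0.25 (SE 0.34, adjusted p = 0.891). In G6.5 it stood at 180.4 and 273.0 CPM, close to the 258.7 and 250.04 CPM of G8.5. The change from G5.5 was 1.99 on the log2 scale (SE 0.36, adjusted p = 0.00314), and without G5.5 replicate 2 its adjusted p was 0.0554. Unlike Tph1, Fmo1 had its G6.5 and G8.5 libraries within the same range, and the fitted change between those days was 0.17 (SE 0.34, adjusted p = 0.904).

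Tph2 and Cish had fitted changes close to that of Fmo1 and smaller than that of Tph1, and missed the threshold. Tph2 (chromosome 10, 115078641 to 115185022), the tryptophan hydroxylase better known from brain neurons, was at 0.444 and 1.25 CPM in G0 and 1.70 and 2.38 CPM in G3.5. It was at 2.99 and 3.38 CPM in G5.5 and at 9.98 and 13.8 CPM in G6.5 (log2 fold change from G5.5 1.90, SE 0.53, adjusted p = 0.0591). Cish (chromosome 9, 107296026 to 107302784), a STAT5-induced inhibitor of cytokine signalling, was at 8.16 and 9.12 CPM in G0 and 13.6 and 39.2 CPM in G3.5. It was at 26.3 and 32.6 CPM in G5.5 and at 118.1 and 108.6 CPM in G6.5 (log2 fold change from G5.5 1.94, SE 0.65, adjusted p = 0.125). The spread in the model came from all 35 libraries. With the 4 libraries fitted alone, where Tph1 lost its call, the adjusted p was 0.0359 for Tph2 and 0.000788 for Cish. Of the 12 alternatives that kept all 4 libraries, 7 called Tph2 and 3 called Cish, and neither was called with any library left out. In neither gene did the libraries of G5.5 and G6.5 overlap, and 3147 of the genes tested (20.5%) were likewise higher in both G6.5 libraries than in both of G5.5.

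**Figure D1:**
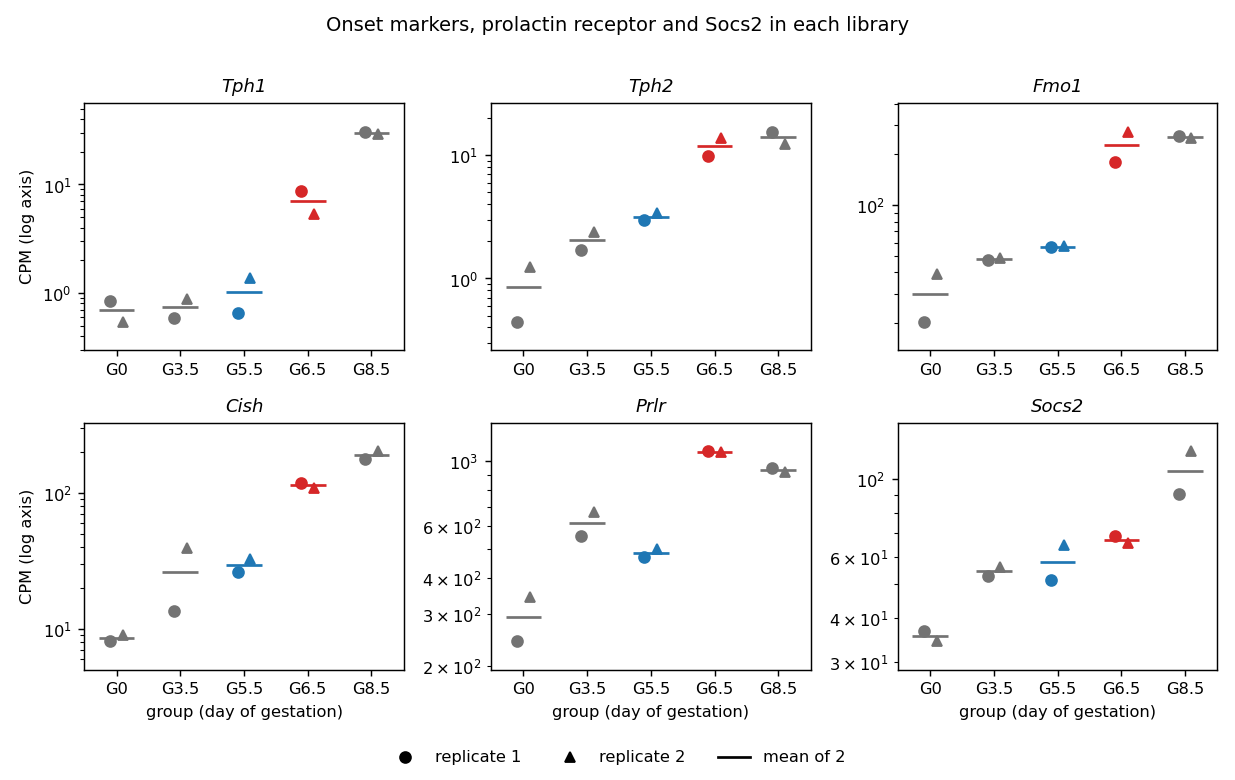
Levels of Tph1, Tph2, Fmo1, Cish, Prlr and Socs2 in each library (CPM, log axis) by group of gestation day, with circles for replicate 1, triangles for replicate 2 and a bar for the mean of 2. Blue marks G5.5 and red G6.5. In the first 5 genes the red points lie above the blue ones, while Socs2 lies at 51.3 and 64.9 CPM in G5.5 and 68.7 and 65.7 CPM in G6.5.

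The receptor itself rose. Prlr (ENSMUSG00000005268, chromosome 15, 10177238 to 10349180, plus strand) went from 471.6 and 500.5 CPM in G5.5 to 1082 and 1071 CPM in G6.5 (log2 fold change 1.15, SE 0.19, adjusted p = 0.00161). Leaving out any of the 4 libraries gave adjusted p between 0.0048 and 0.0324. On day 0 it had been 242.7 and 342.7 CPM and on day 3.5 556.6 and 669.1 CPM, above G5.5. On day 8.5 it was 945.6 and 919.9 CPM. Set against the step before it, the step to G6.5 was larger by a log2 value of 1.48 (SE 0.33, adjusted p = 0.0349). Both steps use the G5.5 libraries.

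The rest of the receptor pathway did not pass the test. Prlr was the only gene called among 23 tested lactogen and cytokine receptors, JAK kinases, STATs and inhibitors, beside 1.07% called higher over all genes. The median log2 fold change of the list was 0.16 beside 0 over all genes. In 9 of the 23 both G6.5 libraries were above both of G5.5 and in 4 below, beside 20.5% and 19.2% of all genes. Socs2, the other feedback inhibitor known from pregnancy, had a log2 fold change of 0.21 (adjusted p = 0.737). The kinase and transcription factor that carry the signal were not called. Jak2 was at 15.1 and 20.2 CPM in G5.5 and 8.97 and 19.8 CPM in G6.5. Stat5a was at 8.07 and 9.75 against 6.52 and 9.74 CPM, and Stat5b at 18.4 and 24.7 against 23.3 and 29.5 CPM. All of these ranges overlap, which with 2 libraries a group does not show that the levels were unchanged. Stat3 was higher in both G6.5 libraries, at 73.1 and 72.9 CPM against 53.6 and 45.3 CPM (log2 fold change 0.56, adjusted p = 0.0631). Ghr, the growth hormone receptor, was lower in both, at 98 and 123.2 CPM against 144.3 and 169.2 CPM (log2 fold change -0.50, adjusted p = 0.0857).

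Per cell, Prlr was read in every cell of the 4 libraries, and its median per cell went from 321 and 544 reads in G5.5 to 813 and 1067.5 reads in G6.5. Fmo1 was read in 71 of 85 and 66 of 81 cells of G5.5 and in 59 of 61 and 80 of 80 cells of G6.5, with medians of 23 and 14 reads against 51 and 166. Cish was read in 71 of 85 and 79 of 81 cells against all 61 and all 80, with medians of 12 and 25 reads against 77 and 87.5. For these genes the change was spread over most cells of a library.

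Tph1 and Tph2 were read in part of the cells only. Tph1 had reads in 3.53% of cells in G5.5 replicate 1 (95% exact binomial interval 0.734 to 9.97) and 22.2% in replicate 2 (13.7 to 32.8), and in 47.5% (34.6 to 60.7) and 35% (24.7 to 46.5) in G6.5. In G5.5 replicate 2 a lone cell held 72.2% of the Tph1 reads, and in G6.5 the top cell held 43.9% and 38.3%. Tph2 had reads in 12 of 85 and 11 of 81 cells of G5.5 and in 33 of 61 and 39 of 80 cells of G6.5. Median depth per cell was 812954 and 1125228 reads in G5.5 and 820953 and 853885 in G6.5. After thinning every cell to 200000 reads, which left out 1 cell of G5.5 replicate 1 and 1 of G6.5 replicate 1, Tph1 was read in 2 of 84 and 8 of 81 cells of G5.5 and in 22 of 60 and 19 of 80 of G6.5. The thinned Tph2 figures were 10 of 84 and 8 of 81 against 27 of 60 and 34 of 80. These intervals cover counting of cells only.

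**Figure D2:**
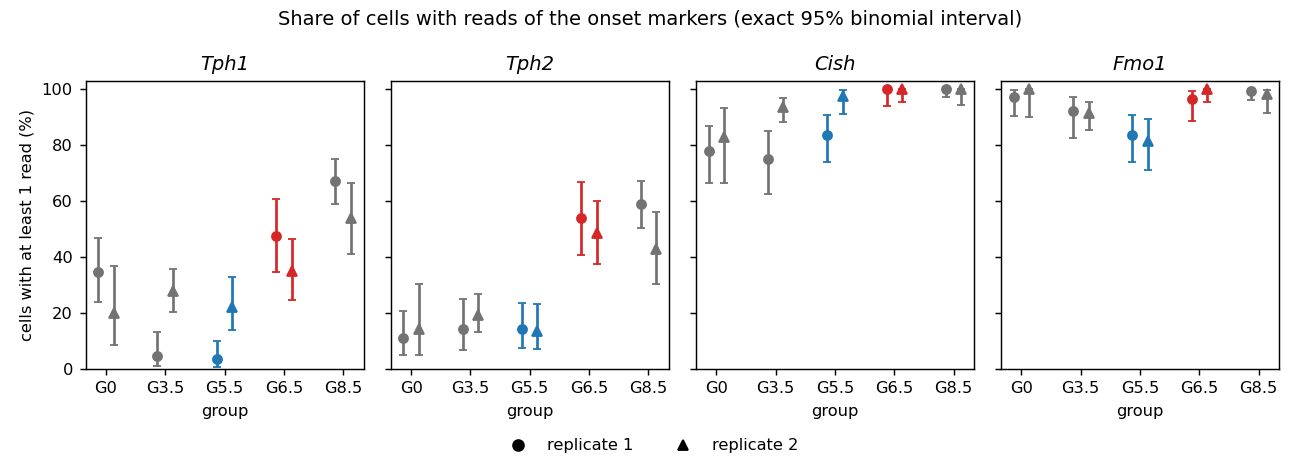
Share of cells with at least 1 read of Tph1, Tph2, Cish and Fmo1 in each library (percent, exact 95% binomial interval as the bar), by group, with G5.5 in blue and G6.5 in red. Tph2 stands at 54.1% and 48.75% in G6.5, while Cish and Fmo1 are near 100% there.

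Beyond the hydroxylases, the serotonin list had 14 tested members, of which Tph1 and Ddc were called higher and none lower, with a median log2 fold change of 0.03, beside 1.07% called higher and a median of 0 over all genes. Ddc, the decarboxylase that completes serotonin synthesis, went from 276.4 and 298.9 CPM to 367.5 and 521.6 CPM (0.63, SE 0.15, adjusted p = 0.0202). Its call was lost without 3 of the 4 libraries, with adjusted p of 0.179 (G5.5 replicate 1), 0.109 (G5.5 replicate 2) and 0.323 (G6.5 replicate 2). Gch1, which makes the pterin cofactor of the hydroxylases, was slightly lower in G6.5, at 82.8 and 84 CPM against 99.2 and 104.7 CPM (adjusted p = 0.22). The vesicular transporters Slc18a1 and Slc18a2 overlapped between the days. Serotonin receptors were near 0: Htr2b was at 0.151 CPM or less, and Htr1d, Htr1b, Htr3a and Htr3b had no reads in any of the 4 libraries.

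Among 20 genes known from islets in pregnancy, a list that other work on gestation and earlier results of these data informed, 9 were called higher and 1 lower (1.07% and 0.755% of all genes), with a median log2 fold change of 1.20. The 9 were Tph1, Fmo1, Prlr, Cldn8, Ivd, Neb, Wipi1, Tnfrsf11b and Lrrc8c. Cldn8, a claudin of tight junctions, was at 1.76 and 2.11 CPM in G5.5, 6.65 and 20.2 CPM in G6.5 and 36.1 and 32.1 CPM in G8.5 (log2 fold change to G6.5 2.80, SE 0.62, adjusted p = 0.0162). Replicate 2 was the high library of G6.5, and without it the adjusted p was 0.211. Without G5.5 replicate 1 or 2 it was 0.132 and 0.124.

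Ivd (ENSMUSG00000027332, chromosome 2, 118861954 to 118882909, plus strand), the mitochondrial dehydrogenase of leucine breakdown, was at 129.4 and 85.3 CPM in G5.5, 212.4 and 267.6 CPM in G6.5 and 368.1 and 431.2 CPM in G8.5. Each of these days lay above the one before it with no overlap. The change from G5.5 to G6.5 was 1.16 (SE 0.23, adjusted p = 0.00827), and without G5.5 replicate 2 its adjusted p was 0.164. Wipi1, a lipid-binding protein of autophagosome formation, was at 34.3 and 30.6 CPM in G5.5 and at 97.2 and 49.5 CPM in G6.5 (1.18, SE 0.26, adjusted p = 0.0153). Here G6.5 replicate 1 was the high library, and without it the adjusted p was 0.462. Without G5.5 replicate 1 or 2 it was 0.0761 and 0.145.

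Neb, the giant actin-binding protein of muscle, went from 4.84 and 3.73 CPM to 9.23 and 16 CPM (1.57, SE 0.40, adjusted p = 0.036), and its adjusted p was 0.126 or 0.278 with the first or the second G5.5 library left out and 0.254 without G6.5 replicate 2. Tnfrsf11b, the decoy receptor osteoprotegerin, went from 2.00 and 3.14 to 6.94 and 7.94 CPM (1.53, adjusted p = 0.0285), and Lrrc8c, a channel protein that opens when cells swell, from 0.214 and 0.682 to 2.05 and 4.93 CPM (2.93, adjusted p = 0.0158). Matn2, an extracellular matrix protein, was high only in G6.5 replicate 2, at 127.5 CPM against 62.7 in replicate 1 and 63.4 and 55.7 in G5.5, and did not pass (adjusted p = 0.184). It stood at 186.4 and 189.5 CPM in G8.5. Nupr1, a small stress-response protein, was the member that fell, and its values are given with the amino acid genes.

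Fmo1 did not move alone at its locus. Its neighbours Fmo4 and Fmo2, 15589 and 7707 bases from it on the same strand of chromosome 1, were also called higher. Fmo2 was at 1.07 and 0.638 CPM in G5.5 and 4.47 and 3.79 CPM in G6.5 (log2 fold change 2.28, adjusted p = 0.0139). Fmo4 was at 0.642 and 0.308 against 1.79 and 4.58 CPM (2.77, adjusted p = 0.0117), but G3.5 had been at 2.46 and 2.43 CPM. Fmo5 was lower in both G6.5 libraries and did not pass (log2 fold change -0.85, adjusted p = 0.456). Fmo2 and Fmo4 were singled out after their values were seen.

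The days on either side give a comparison whose fold changes contrast none of these 4 libraries. The spread of each gene, the TMM factors and the filter came from the same fit of all 35 libraries. The calls of the comparisons are therefore not independent. Between G3.5 and G8.5 183 genes (1.19%) passed the same test, 0.794% of all genes as higher in G8.5 and 61 genes (0.397%) as lower. Of the 164 genes higher in G6.5, 26 were also called higher in G8.5, which is 15.9% of the former and 21.3% of the latter list, and 81.1% had the same sign, beside 48.7% of all genes tested. Their median log2 fold change was 0.88 in the day-6.5 step and 0.40 from G3.5 to G8.5. Of the genes lower in G6.5, 6 were called lower in G8.5 (5.17% and 9.84% of the lists), 1 was called higher and 84 (72.4%) had the same sign, beside 49% of all genes. All 4 onset markers passed there: log2 fold changes were 5.27 for Tph1 (SE 0.75, adjusted p = 0.000246), 2.41 for Fmo1 (adjusted p = 0.000417), 2.76 for Tph2 (adjusted p = 0.00822) and 2.84 for Cish (adjusted p = 0.0282).

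Ivd led the shared genes by that p, with 1.96 (SE 0.23, adjusted p = 2.89e-05). Cldn8, Neb, Wipi1 and Tnfrsf11b were also called in both, as were Fmo2, Gcdh, Syce2, Cntn3, Prok1, Lrrc55, Amigo2 and Ovol2. Prlr was not: from G3.5 to G8.5 its change was 0.61 (SE 0.19, adjusted p = 0.11). Socs2 passed in that comparison alone, at 52.8 and 56.3 CPM in G3.5 and 90.9 and 120.6 CPM in G8.5 (0.95, adjusted p = 0.0304), and Ghr was called lower (-0.71, adjusted p = 0.0149). The difference between the comparisons was not tested. The G8.5 libraries also carried liver transcripts, with albumin at 181.6 and 142.2 CPM against 4.79 and 12.4 CPM in G6.5 and 0.825 and 0.869 CPM in G5.5. Of 10 hepatocyte markers, 7 were called higher from G3.5 to G8.5, and their part in that comparison was not tested.

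**Figure D3:**
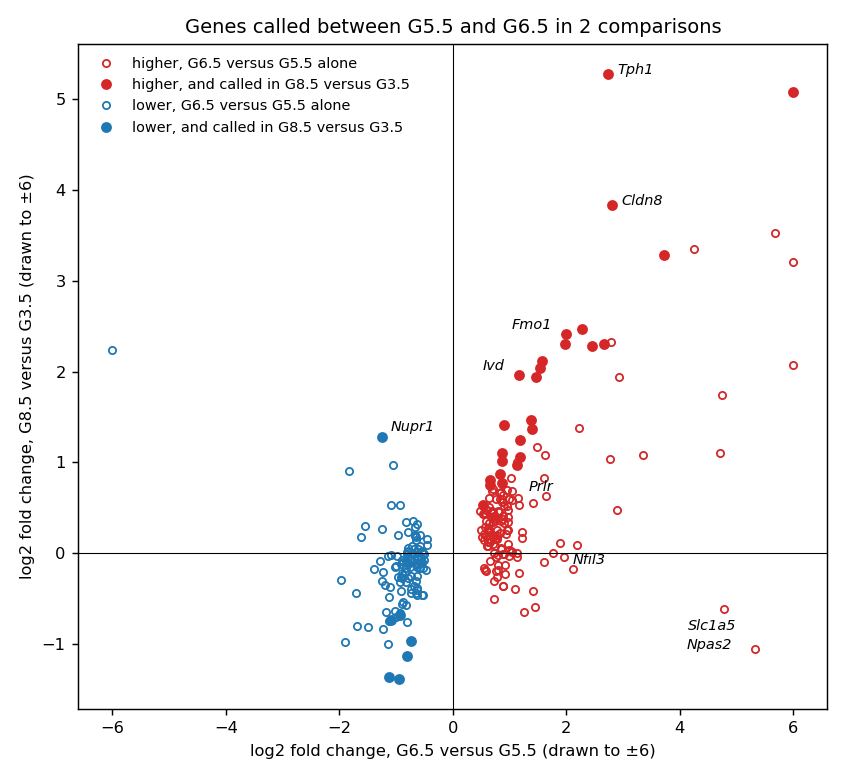
Each of the 280 genes called between G5.5 and G6.5, by its log2 fold change in that step (horizontal) and from G3.5 to G8.5 (vertical), red for higher and blue for lower in G6.5, filled where the gene was also called from G3.5 to G8.5 in either direction. Values past 6 are drawn at 6. Tph1, Cldn8, Fmo1 and Ivd are high on both axes, Nfil3 and Npas2 on the horizontal axis alone, and Nupr1 has opposite signs.

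The 6 genes called lower in both comparisons were Tm4sf4, Fkbp5, Anpep, Marcks, Mdm1 and Rad21, and they are named after their values were seen. Tm4sf4, a tetraspanin-like membrane protein of islet cells, went from 524.5 and 606.5 CPM in G5.5 to 294.0 and 236.7 CPM in G6.5 (log2 fold change -1.09, SE 0.14, adjusted p = 0.000123), and from 383 and 458 CPM in G3.5 to 255 and 250.4 CPM in G8.5 (-0.74, adjusted p = 0.00503). Fkbp5, a glucocorticoid-induced co-chaperone of steroid receptors, went from 58.9 and 66.8 CPM in G5.5 to 23.5 and 34.2 CPM in G6.5 (-1.12, SE 0.28, adjusted p = 0.0307) and on to 14.54 and 16.7 CPM in G8.5. Its adjusted p was 0.0965 or 0.193 with the first or the second G5.5 library left out and 0.354 without G6.5 replicate 1. Fkbp5 was the only gene called among 14 tested steroid, thyroid and retinoid receptors and glucocorticoid targets, whose median was -0.16. Over all genes tested 0.755% were called lower in G6.5. Marcks, an actin-linked substrate of protein kinase C, went from 61.7 and 59 to 35.3 and 33.8 CPM (-0.80, adjusted p = 0.0349).

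STAT dimers bind DNA at an inverted repeat, and the letters TTCNNNGAA were searched in RefSeq promoters of GRCm38.p6, each 250 bases before to 50 bases after an annotated start. The motif is its own reverse complement, so both strands were read together. It was in 1006 of 14492 promoters of tested genes (6.94%), in 14 of 160 promoters of genes called higher (8.75%) and in 8 promoters of genes called lower (7.08%). Among genes called higher in both comparisons it was in 6 of 22 promoters (27.3%), those of Ivd, Wipi1, Gcdh, Cntn3, Fmo2 and Prok1. These 22 promoters belong to 18 of the 26 genes called higher in both. The others, Fmo1, Cldn8 and Neb among them, had no promoter to search. The set is small and was formed from these results, so this is a description of letters and not of binding. No match was found for the onset markers Tph1 and Tph2, which may also lack a promoter entry. The 30-base windows below show the match in capitals, 5′ to 3′ on the gene's strand, for the onset marker Cish, for Prlr, where it lies in 1 of 3 annotated promoters, and for those 6 genes.
Cish, chr9:107296649-107296678, plus: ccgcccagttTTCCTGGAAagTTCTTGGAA
Prlr, chr15:10223786-10223815, plus: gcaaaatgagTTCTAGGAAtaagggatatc
Ivd, chr2:118861896-118861925, plus: ttcggctggcTTCCGAGAAcgattggctac
Wipi1, chr11:109611528-109611557, minus: acccagccgaTTCTCTGAAggaggggcggg
Gcdh, chr8:84894134-84894163, minus: gatcacatccTTCCACGAAgtacacacaaa
Cntn3, chr6:102464737-102464766, minus: ggatgtaaatTTCTGTGAAtgatacagagt
Fmo2, chr1:162898462-162898491, minus: ccagacaagtTTCTCTGAAggggaggaagg
Prok1, chr3:107238746-107238775, minus: tgccagccagTTCCTGGAActggataaatt

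Cish carries 2 matches within 30 bases at its start, and Prok1 carries 2 as well, of which the one farther from its start is shown. Of the genes behind these windows, Gcdh, the glutaryl-CoA dehydrogenase of lysine and tryptophan breakdown, went from 20.6 and 25.4 CPM in G5.5 to 35.6 and 46.3 CPM in G6.5 (log2 fold change 0.83, adjusted p = 0.016). Gcdh overlaps Syce2 on the other strand, and Syce2 was called higher too (1.13, adjusted p = 0.00651). Since no source used here states that strand was counted, their reads may be shared. Cntn3, a contactin adhesion protein, went from 0.565 and 0.550 to 2.67 and 3.41 CPM (2.45, adjusted p = 0.011). Prok1, a secreted prokineticin, had no reads in G5.5 and was at 0.150 and 0.302 CPM in G6.5, rising to 1.21 and 0.861 CPM in G8.5.

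Genes called from both lists of the endoplasmic reticulum (ER) were higher in G6.5, with modest sizes. Of 26 unfolded protein response and folding genes of the ER, 5 were called higher and none lower, with a median of 0.35, and 2 of 24 genes of ER entry and vesicle coats were called higher, with a median of 0.32. Over all genes tested 1.07% were called higher and 0.755% lower. Dnajc3, an ER co-chaperone, went from 156.4 and 184.9 CPM to 317.8 and 237.1 CPM (log2 fold change 0.70, adjusted p = 0.0117). Creld2, a secreted ER stress protein, went from 78.9 and 73.8 to 166.7 and 132.4 CPM (0.97, adjusted p = 0.0139), and Hspa5, the ER chaperone BiP, from 660.8 and 690.2 to 1303 and 873.1 CPM (0.69, adjusted p = 0.0456). In these 3 genes G6.5 replicate 1 was the higher library.

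Sdf2l1, part of the BiP chaperone complex, and Manf, a secreted ER factor, were the other members called (0.98, adjusted p = 0.0317, and 0.71, adjusted p = 0.0477). Without G6.5 replicate 1 the adjusted p was 0.256 for Dnajc3, 0.178 for Creld2, 0.30 for Sdf2l1 and 0.606 for Hspa5, and none of these 4 passed with either G5.5 library left out, at 0.0503 to 0.30. At the ER membrane, Spcs3, a signal peptidase subunit, went from 170.8 and 184.3 CPM to 270.7 and 246.5 CPM (0.54, adjusted p = 0.0175), and Sec61g, a subunit of the translocation channel, from 455.1 and 446.1 to 654.8 and 689.2 CPM (0.58, adjusted p = 0.0349). Both lost the call without each G5.5 library and without G6.5 replicate 1, at adjusted p of 0.103 to 0.216, and Sec61g also without G6.5 replicate 2, at 0.129.

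Of 12 heat-shock chaperones outside the ER 3 were called higher (1.07% of all genes), Hsph1 (0.76, adjusted p = 0.0414), the mitochondrial chaperonin Hspd1 (0.47, adjusted p = 0.0433) and Dnaja1 (0.58, adjusted p = 0.0439), with a list median of 0.47. Hsph1, a disaggregase partner of Hsp70, was at 71.7 and 82.5 CPM in G5.5 and at 155.5 and 106.5 CPM in G6.5. Each of the 3 lost the call without either G5.5 library or without G6.5 replicate 1, at adjusted p of 0.0958 to 0.531, and Hspd1 and Dnaja1 also without G6.5 replicate 2 (0.126 and 0.0669). Oxidative phosphorylation showed no called gene among 24, with a median of 0.11, and immediate-early genes none among 18, with a median of 0.02.

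Insulin genes and the genes that process granule cargo did not move as a block. Ins1 and Ins2 had log2 fold changes of -0.08 (adjusted p = 0.903) and -0.20 (adjusted p = 0.649), with G6.5 replicate 1 above and G6.5 replicate 2 below both G5.5 libraries. Among the 18 genes of the list, 4 were called lower and 1 higher, beside 0.755% and 1.07% of all genes. Pcsk1n, which encodes the inhibitor proSAAS of the prohormone convertase PC1/3, fell from 1088 and 1107 CPM to 435.5 and 525.5 CPM (log2 fold change -1.19, SE 0.16, adjusted p = 0.000123). It was called without each of the 4 libraries in turn, with adjusted p up to 0.0121. Pcsk1, the convertase PC1/3 itself, was the gene called higher, at 228.3 and 215.0 against 317.6 and 409.9 CPM (0.71, SE 0.17, adjusted p = 0.0281), and it was kept that call without G6.5 replicate 1 alone, with 0.127 or 0.206 when the first or the second G5.5 library was left out and 0.224 without G6.5 replicate 2.

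Chga, the granin chromogranin A, fell from 10653 and 10060 CPM to 6923 and 6367 CPM (-0.64, SE 0.11, adjusted p = 0.00304), with adjusted p of 0.0214 to 0.039 when libraries were left out. Pcsk2, the convertase PC2, went from 2516 and 2670 to 1862 and 1886 CPM (-0.47, adjusted p = 0.0117), and Slc30a8, the zinc transporter of insulin granules, from 848.3 and 959.8 to 610.1 and 642.7 CPM (-0.53, adjusted p = 0.03). Slc30a8 was also the only called gene of 20 β-cell identity genes, whose median was -0.09, beside 0.755% called lower over all genes. Pcsk2 missed without G5.5 replicate 2 (0.133) or G6.5 replicate 1 (0.0924). Slc30a8 missed with any of the 4 libraries left out, at 0.0732 to 0.289. The medians were near the 0 of all genes, at -0.04 for 20 genes of exocytosis and excitability and -0.06 for the insulin and granin list.

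The list with the lowest median was that of the amino acid response with serine and one-carbon enzymes: -0.81 over 22 genes, 6 called lower (0.755% of all genes) and none higher. In 15 of the 22 both G6.5 libraries were below both of G5.5, as in 2947 (19.2%) of all genes. Phgdh, the entry enzyme of serine synthesis, was at 36.6 and 39 CPM in G5.5 and at 9.06 and 14 CPM in G6.5 (log2 fold change -1.71, SE 0.25, adjusted p = 0.000601). Psph, the last enzyme of that path, went from 19.9 and 22.6 to 9.06 and 7.09 CPM (-1.40, SE 0.26, adjusted p = 0.0047), and Psat1, the step between them, from 13.5 and 10.0 to 2.86 and 4.33 CPM without passing (-1.71, SE 0.50, adjusted p = 0.0751).

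Slc7a5, the light chain of a large neutral amino acid transporter, went from 66.9 and 61.7 to 24.3 and 30.5 CPM (-1.23, SE 0.20, adjusted p = 0.00159). Shmt2, which moves a carbon from serine to folate in mitochondria, went from 24 and 22.5 to 7.86 and 13.8 CPM (-1.10, adjusted p = 0.0129), and Sesn2, a leucine-sensing inhibitor of mTORC1, from 29.7 and 26.7 to 10.4 and 17.3 CPM (-1.02, adjusted p = 0.0284). Eif4ebp1, a translation repressor outside the list, went from 61.4 and 64.3 to 17.9 and 25 CPM (-1.55, adjusted p = 0.0139). Atf4, the transcription factor known to drive many of these genes, had overlapping libraries, at 202.7 and 176.2 against 170.9 and 197.9 CPM. These are RNA levels, and the protein and its activity were not measured.

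The called genes of the list stood higher in G5.5 than on the earlier day as well. Phgdh had been at 19 and 20.6 CPM in G3.5 and was at 15.9 and 13.3 CPM in G8.5, and Slc7a5 was at 48.3 and 48.2 CPM and at 37.4 and 46.6 CPM on those days. The median of the list was 0.51 from G3.5 to G5.5 and 0.27 from G6.5 to G8.5, and in the comparison without shared libraries, from G3.5 to G8.5, it was 0.05 with 1 gene called higher and none lower. The step to G6.5 differed from the step before it by -2.64 for Phgdh (SE 0.41, adjusted p = 0.00119), -1.64 for Slc7a5 (adjusted p = 0.0121), -2.28 for Psph (adjusted p = 0.00587) and -2.10 for Shmt2 (adjusted p = 0.00553). Over all genes that difference passed for 76 (0.494%). Phgdh and Slc7a5 were called whichever library was left out, while Psph missed without G5.5 replicate 2 (0.0562). Without G6.5 replicate 1 the adjusted p was 0.265 for Shmt2 and 0.187 for Eif4ebp1, and without G5.5 replicate 2 it was 0.0654 and 0.0853. Shmt2 also missed without G5.5 replicate 1 (0.082).

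Nupr1 was at 121.3 and 167.8 CPM in G5.5, 37.6 and 83.2 CPM in G6.5 and 149.8 and 278.5 CPM in G8.5. It fell into G6.5 (log2 fold change -1.26, SE 0.28, adjusted p = 0.0162), rose out of it (1.82, SE 0.28, adjusted p = 0.00294) and was higher in G8.5 than in G3.5 (1.29, adjusted p = 0.0171). The fall was not called without G5.5 replicate 2 (adjusted p = 0.189) or without G6.5 replicate 1 (adjusted p = 0.316).

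Several lipid genes showed the opposite course, with their lowest levels in G5.5. Of 24 sterol and fatty acid genes 6 were called higher in G6.5 and none lower (median 0.46), beside 1.07% and 0.755% of all genes. In 15 both G6.5 libraries were higher than both of G5.5, as in 20.5% of all genes. Lpl, the lipase that frees fatty acids from lipoproteins, was at 59.6 and 96.3 CPM in G3.5, fell to 33.2 CPM in both G5.5 libraries (-1.23, SE 0.23, adjusted p = 0.0118) and rose to 89.1 and 69.9 CPM in G6.5 (1.26, SE 0.23, adjusted p = 0.00365). Its G8.5 libraries were at 59 and 40.5 CPM, so that those of G5.5 were the lowest of the 8. The difference between its steps out of and into G5.5 was 2.49 (SE 0.41, adjusted p = 0.00209).

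Scd2, a fatty acid desaturase, was at 46.8 and 83.5 CPM in G3.5 and went from 38.1 and 28.7 CPM in G5.5 to 75 and 79.4 CPM in G6.5 (1.21, adjusted p = 0.0128). The difference between its steps was 2.18 (SE 0.45, adjusted p = 0.0157). Without G5.5 replicate 2 the adjusted p of the rise was 0.0562 for Lpl and 0.165 for Scd2, and without G6.5 replicate 1 it was 0.058 for Lpl. Mvd, Cyp51 and Hmgcs1, enzymes of the sterol path, were also called, at 2.19, 0.96 and 0.99 with adjusted p of 0.0204, 0.0285 and 0.0491. Mvd was at 4.77 and 6.64 CPM in G3.5, 0.779 and 2.50 CPM in G5.5, 5.41 and 9.65 CPM in G6.5 and 7.61 and 4.56 CPM in G8.5, and missed without G5.5 replicate 1 (0.258) and without G6.5 replicate 2 (0.134). From G3.5 to G8.5 the list had 1 gene called higher and a median of 0.16.

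Of 17 clock genes 3 were called higher in G6.5 (1.07% of all genes), and these 3 had their low point in G5.5. The list as a whole did not: its summed level was 350.02 and 398.9 CPM in G5.5, 345.2 and 336.2 CPM in G3.5 and 332.5 and 337.5 CPM in G6.5. Nfil3, a repressor of clock output genes, was at 21.4 and 24.3 CPM in G3.5, 4.64 and 4.71 CPM in G5.5, 18.8 and 17.3 CPM in G6.5 and 26.2 and 18.3 CPM in G8.5. It fell into G5.5 by 2.29 on the log2 scale (adjusted p = 0.00171) and rose by 1.95 into G6.5 (SE 0.33, adjusted p = 0.00219). Arntl, which encodes the clock activator BMAL1, was at 8.84 and 12, 2.98 and 2.72, 11.5 and 5.81, and 10.9 and 8.61 CPM on the same days (step to G6.5 1.60, SE 0.40, adjusted p = 0.0309).

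Npas2, a partner of BMAL1, was at 2.26 and 2.51 CPM in G3.5, 0 and 0.0440 CPM in G5.5 and 0.684 and 1.31 CPM in G6.5. It passed in both steps (adjusted p = 0.00171 and 0.00598), and with G5.5 near 0 its fitted fold change depends on the prior count. The other clock genes did not pass, and the median was 0.13: Per2 was at 14.2 and 16.9 against 16.8 and 20.2 CPM, Nr1d1 at 16.7 and 18.6 against 20.1 and 18.49 CPM, and Dbp at 11.4 and 8.35 against 5.00 and 9.07 CPM. Without G5.5 replicate 2 the adjusted p of Nfil3 was 0.0503. That of Arntl was 0.16 or 0.216 with the first or the second G5.5 library left out and 0.456 without G6.5 replicate 1, and that of Npas2 was 0.0946 without G5.5 replicate 1. The labels do not give the hour at which the islets were taken.

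**Figure D4:**
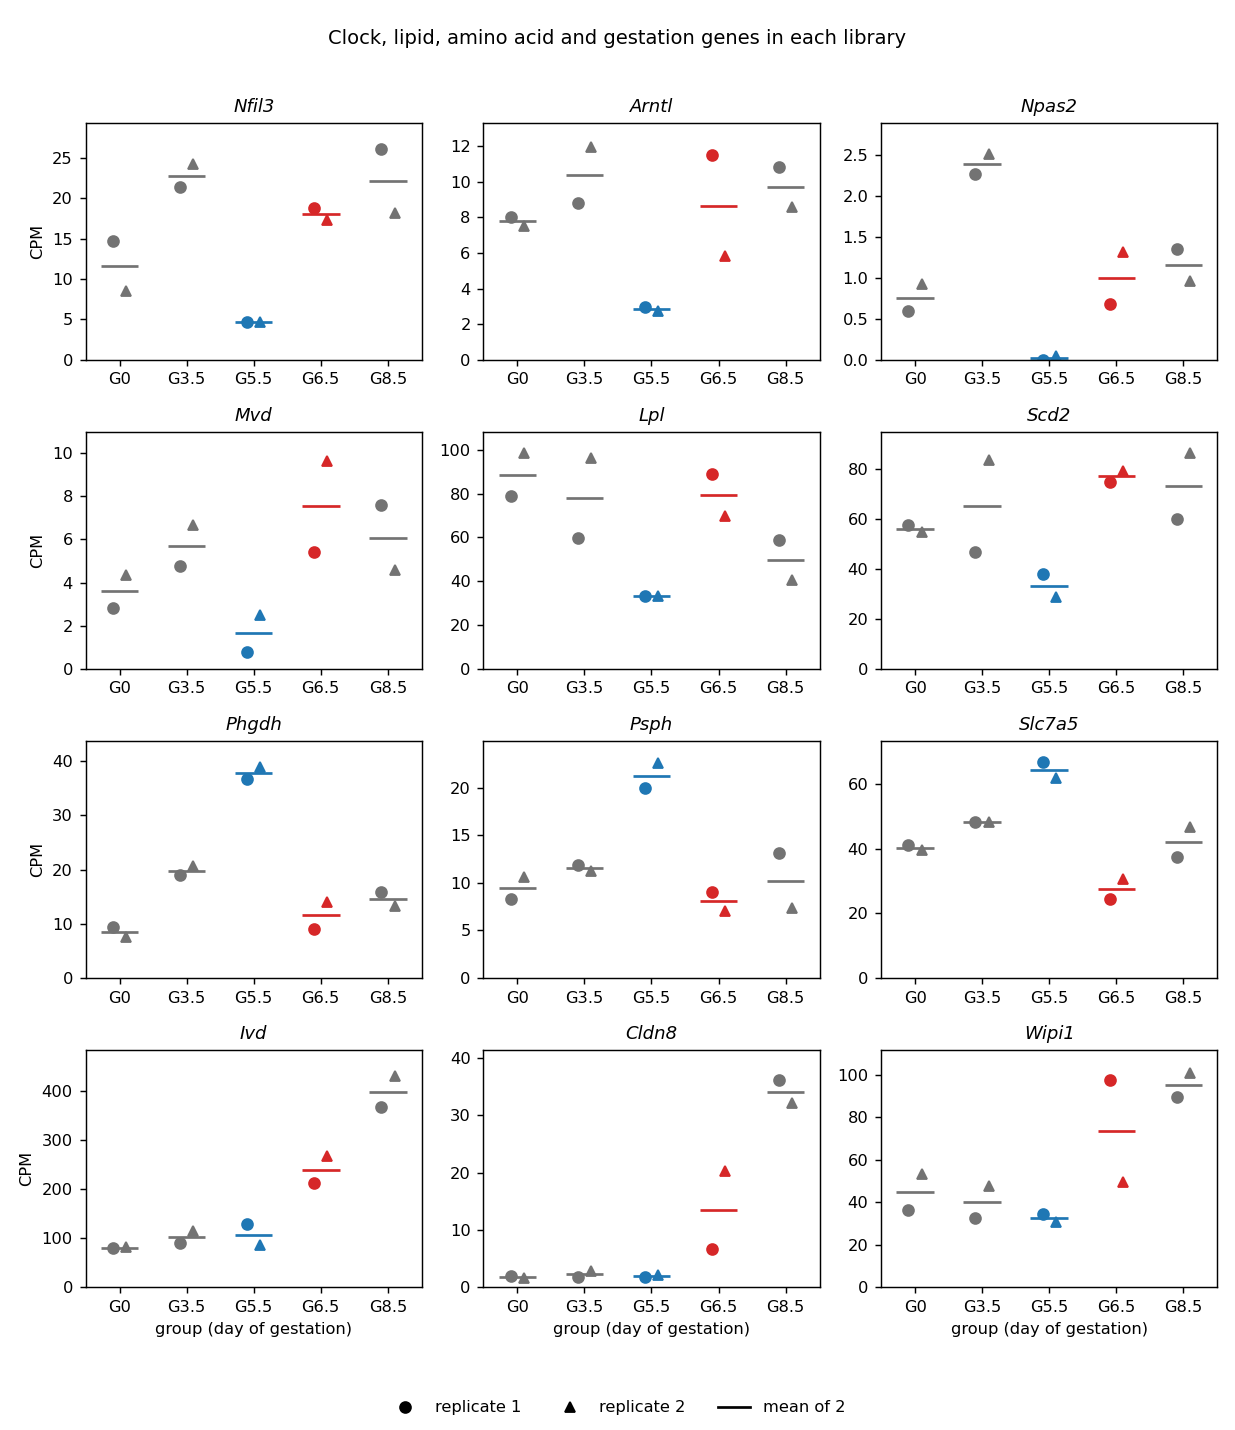
Levels (CPM, linear axes from 0) of 12 named genes in each library by group of gestation day, with circles for replicate 1, triangles for replicate 2 and a bar for the mean of 2, and G5.5 in blue and G6.5 in red. In the clock and lipid genes (upper 6 panels) the blue points are the lowest shown, in Phgdh, Psph and Slc7a5 the highest, and in Ivd, Cldn8 and Wipi1 they lie with the earlier days.

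The glutamine carrier Slc1a5 had the same shape, and is named after its values were seen: 2.59 and 4.06 CPM in G3.5, 0.122 and 0.110 CPM in G5.5, 3.78 and 2.66 CPM in G6.5 and 2.39 and 1.98 CPM in G8.5. It was called in the step into G5.5 (-4.83, adjusted p = 0.00253) and in the step to G6.5 (4.78, adjusted p = 0.00161). The 9 genes called from G3.5 to G5.5 were Slc1a5, Nfil3, Npas2, Lpl, Rhobtb1 and Nup54, which fell, and Slc2a13, Galnt18 and Rims3, which rose. Rhobtb1 was at 107.7 and 130.1, then 48.7 and 60.3, then 113.3 and 109.8 CPM on days 3.5, 5.5 and 6.5. Slc2a13, an inositol transporter, rose from 3.68 and 5.00 CPM in G3.5 to 12.2 and 12.4 CPM in G5.5, and was then at 11.8 and 17 CPM in G6.5. Steps on either side of G5.5 share its libraries, so a low G5.5 enters both.

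Aldh1l1 was the most extreme of the named genes. This cytosolic folate enzyme (ENSMUSG00000030088, chromosome 6, 90486427 to 90600203, plus strand), which oxidises formyl-tetrahydrofolate, had no reads in either G5.5 library, and 570 and 1139 reads in G6.5. That is 12.2 and 13.2 CPM, at least 662-fold above a floor of 3 reads over the G5.5 libraries (adjusted p = 0.0139). Reads were in 29 of 61 and 54 of 80 cells of G6.5, while 0 of 85 and 0 of 81 allow shares of up to 4.25% and 4.45% in G5.5. It was low in the neighbouring days too, at 0.0871 and 0.927 CPM in G3.5 and at 2.97 and 1.48 CPM in G8.5. Among all 35 libraries, 5 were at 10.3 CPM or more, both of G6.5 among them, and the other 30 at 2.97 CPM or less. Without G5.5 replicate 1 or 2 its adjusted p was 0.117 and 0.14.

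Slc41a3, a magnesium transporter gene that begins 4522 bases beyond Aldh1l1 on the same strand, changed in the same step. It was at 22.4 and 25.3 CPM in G3.5, 9.47 and 8.25 CPM in G5.5, 39.9 and 36.6 CPM in G6.5 and 23 and 19.3 CPM in G8.5 (step to G6.5 2.11, SE 0.34, adjusted p = 0.00159). Its G6.5 libraries were the highest and its G5.5 libraries the lowest of the 8 from G3.5 to G8.5. Outside these days Slc41a3 was at 41.6 and 40.3 CPM in G10.5 and at 29.4 CPM in G14.5 replicate 3. Those were the other libraries with Aldh1l1 at 10.3 CPM or more. A library from after delivery, P14L replicate 1, was also above both of G6.5 in Slc41a3, with no reads of Aldh1l1. The step of Slc41a3 to G6.5 differed from the one before by 3.54 (SE 0.62, adjusted p = 0.00348). Without G5.5 replicate 2 the adjusted p of the step was 0.0503.

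Other genes among the 10 largest rises were not called from G3.5 to G8.5. Gria3, an AMPA-type glutamate receptor subunit, was at 3.24 and 4.52 CPM in G5.5 and 15.9 and 10.7 CPM in G6.5, and back at 4.38 and 5.98 CPM in G8.5 (step to G6.5 1.77, adjusted p = 0.0439). In G0 it was at 8.52 and 15.1 CPM, and in G10.5 at 14.9 and 17.3 CPM. Pde10a, a cyclic nucleotide phosphodiesterase, was at 5.70 and 6.73 against 38.1 and 8.34 CPM (1.89, adjusted p = 0.0439), and without the high library, G6.5 replicate 1, its adjusted p was 0.887, beside 0.247 or 0.203 with the first or the second G5.5 library left out. Ikzf4, an Ikaros-family zinc finger factor, went from 6.57 and 6.68 to 22 and 18.6 CPM (1.62, adjusted p = 0.0177), and Asap1, a GTPase-activating protein for Arf, from 5.87 and 8.26 to 21.8 and 22.4 CPM (1.64, adjusted p = 0.0139). Gria3, Ikzf4 and Asap1 each lost the call without 3 of the 4 libraries, at adjusted p of 0.0595 to 0.305, the exception being G6.5 replicate 2.

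Among the largest falls outside the lists, S100z, a calcium-binding S100 protein, went from 13.2 and 16.7 CPM to 4.25 and 3.73 CPM (-1.90, adjusted p = 0.0283), Tmem59l, a neuronal membrane protein, from 25.1 and 21.5 to 6.77 and 6.36 CPM (-1.83, adjusted p = 0.0153), and Mt1, the zinc-binding metallothionein, from 1497 and 1483 to 544.6 and 705.3 CPM (-1.25, adjusted p = 0.0443). In these 3 genes the G5.5 libraries were the highest of the 8 from G3.5 to G8.5, and each lost the call without each library in turn, at adjusted p of 0.0562 to 0.346. Smim24, Galnt9 and Uchl1 also fell, by 1.62, 1.49 and 1.29 on the log2 scale (adjusted p = 0.0084, 0.0134 and 0.0313). Without G6.5 replicate 1 these became 0.0723, 0.166 and 0.271, and without G5.5 replicate 2 they became 0.0503, 0.0757 and 0.247. Galnt9 and Uchl1 also missed without G5.5 replicate 1, both at 0.0657, and Uchl1 without G6.5 replicate 2 (0.0744). Fut1, a fucosyltransferase singled out for its zero, was at 4.97 and 1.22 CPM in G5.5 and had no reads in G6.5, at least 136.9-fold lower against a floor of 3 reads over the group.

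Cell division genes mostly had a positive log2 fold change, 21 of 25 on the list. In 6 of the 25 both G6.5 libraries were above both of G5.5 and in 0 below, beside 20.5% and 19.2% of all genes. Over all genes 1.07% were called higher. Of 25 cell cycle genes 1 was called, Ccnd1, cyclin D1, at 21.4 and 24.8 CPM in G5.5 and 62.8 and 31.3 CPM in G6.5 (1.02, SE 0.23, adjusted p = 0.0192), and its adjusted p was 0.60 without G6.5 replicate 1. With the first or the second G5.5 replicate left out it was 0.172 or 0.103. Mki67, the proliferation marker, was at 12.6 and 0.0220 CPM in the G5.5 replicates and at 4.32 and 6.5 CPM in G6.5, so that the G5.5 replicates spanned both G6.5 values. Top2a showed the same spread, at 19.4 and 0.066 against 6.92 and 7.28 CPM. The list median was 0.69.

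Of 16 interferon and antigen presentation genes 1 was called, Irf1, a transcription factor, lower at 21.6 and 23.8 CPM against 45 and 34.8 CPM (-0.81, adjusted p = 0.0349), with a list median of -0.40, and it missed without each library, at adjusted p of 0.0757 to 0.309. Over all genes tested 0.755% were called lower. None of 11 glucose-responsive genes was called (median -0.09). Called markers of other cell types were Krt7, a ductal keratin, lower at 107.2 and 153.3 against 270.0 and 289.7 CPM (-1.10, adjusted p = 0.00159), and Ttr, transthyretin, made by liver and by α cells, lower at 1176 and 927.5 against 1731 and 2287 CPM (-0.93, adjusted p = 0.0151). Krt7 missed without G6.5 replicate 1 (0.0529), and Ttr without G5.5 replicate 2 (0.204) or G6.5 replicate 2 (0.112). The other ductal markers were not called. With Krt7 the only negative value, 6 of the 7 were positive (list median 0.58), at levels of 0 to 24.3 CPM. Of the 7, 4 were higher in both G6.5 libraries, beside 20.5% of all genes tested. Of 10 hepatocyte markers 7 were positive (median 2.51), none of them called. Of the 10, 5 were higher in both G6.5 libraries, beside that 20.5%. Albumin, the defining one, was at 0.825 and 0.869 CPM in G5.5 and 4.79 and 12.4 CPM in G6.5, and the part of these transcripts in the results was not tested.

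**Figure D5:**
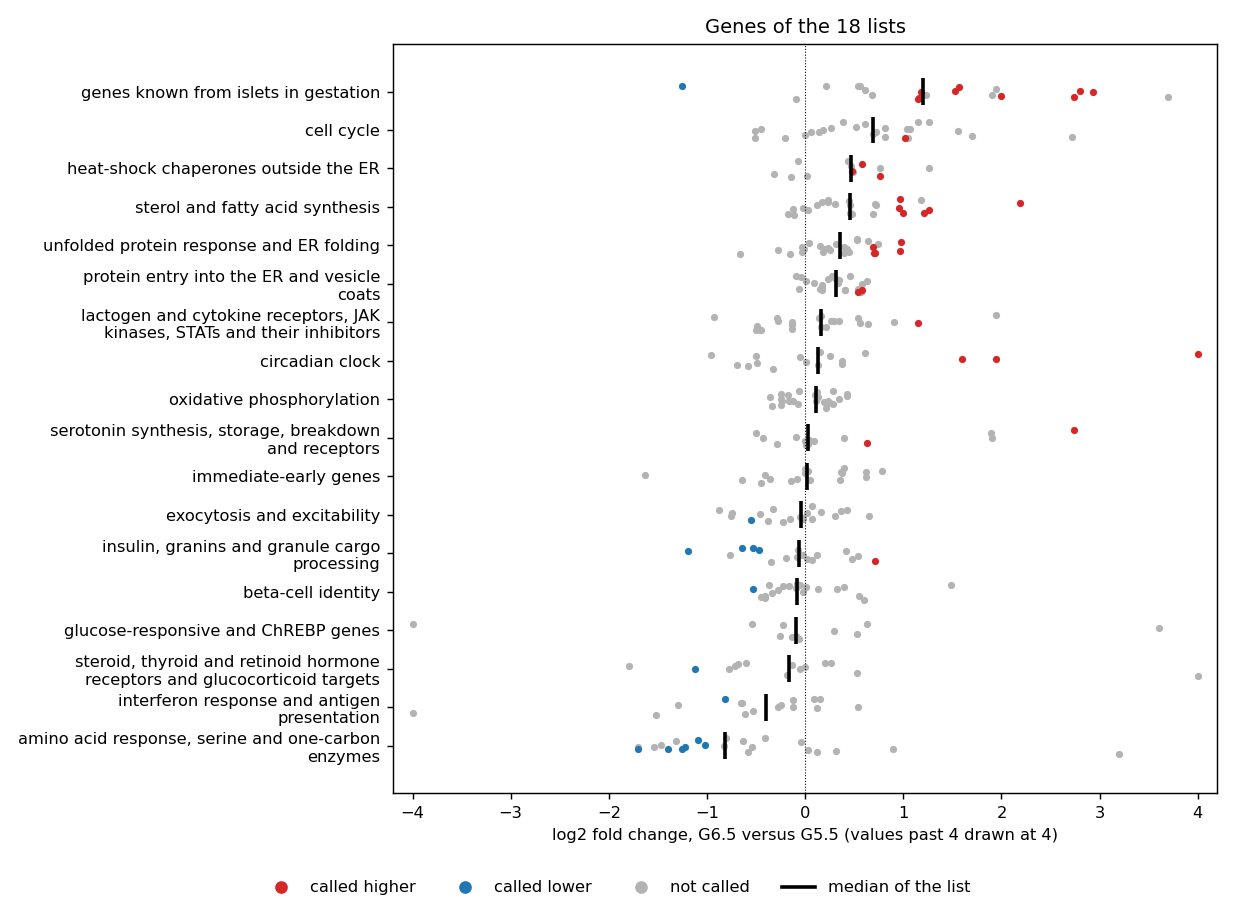
Log2 fold change from G5.5 to G6.5 of every tested gene of the 18 lists, each point a gene, red for called higher, blue for called lower and grey for not called, with a bar at the median of the list. Values past 4 are drawn at 4. Genes known from islets in gestation have the highest median, 1.20, and the amino acid response the lowest, -0.81.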

How the data were processed

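The authors deposited read counts per gene and cell for the plates, and beside them normalized values (a score that sums to 100000 per cell with the insulin genes left out). Per the submitters' processing notes, reads were handled with Trimmomatic 0.39, featureCounts 2.0.1 and GRCm38/mm10; Cell Ranger 3.1.0 belongs to the 10x libraries, not used here. Aligner and annotation: not given in the sources used here. No cell was removed. Counts were summed per replicate (replicates taken from the column names) into 35 libraries of 16 groups and fitted in 1 model with edgeR 4.0.16 (TMM factors, filterByExpr, quasi-likelihood F test, Benjamini-Hochberg adjusted p under 0.05, "called"), after a check on simulated data. SE is the log2 fold change over the root of F. P-values measure only the spread between libraries. Named genes were the onset markers, Prlr, Socs2, Ins1, Ins2, Mki67, the 10 largest called changes each way (at least 10 CPM, no overlap of replicates), up to 4 called members of each list and called markers of other cell types. Further genes were named after their values were seen, and a few that the rule names are not reported here. Members and lists were chosen with earlier results of these data known. GENCODE M21 gave positions for 15335 of 15373 genes, and RefSeq promoters matched 205 of 280 called genes. Alternatives were size factors, filter, samples in the fit, replicate block, libraries, cells, DESeq2 and limma on the normalized values.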

Additional observations from a re-analysis of the deposited data

How the results depend on the processing

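Calls are given here as the percentage of genes tested that passed, for 5 contrasts in the order G6.5 against G5.5 (1.82%, 280 genes), G8.5 against G3.5 (1.19%), G5.5 against G3.5 (0.0585%), G8.5 against G6.5 (0.052%) and the difference between the steps into and out of G5.5 (0.494%). Leaving out each library in turn gave ranges of 0.106% to 1.52% (17 to 245 genes), 0.0871% to 0.807%, 0.0124% to 0.0622%, 0% to 0.174% and 0.0187% to 0.915%. The lone library left in a group was assumed to vary like the other groups. With no filter on low counts the percentages were 3.53 (642 genes), 3.55, 0.842, 1.43 and 2.50, and with DESeq2 4.32 (586 genes), 3.20, 0.487, 1.35 and 2.57. With the 5 groups from G0 to G8.5 alone, a choice made after seeing the data, they were 1.22 (169 genes) for G6.5 against G5.5, 0.158 for G8.5 against G6.5 and 0.252 for the difference, and with the 4 libraries alone 0.572 (74 genes) for the first. The cause of these shifts was not tested. Other size factors (280 genes), leaving out cells rich in other hormones (305) or shallow cells (272), insulin genes left out of library sizes (278) and limma on the normalized values (203 to 251) kept the count between G5.5 and G6.5 within 1.5 times. Replicate numbers did not pair the libraries (r = 0.0115 over 7097 genes), and with a replicate block the 5 counts were 277, 187, 10, 9 and 65. Thinning cells to 200000 and 100000 reads lowered the mean share of G6.5 cells with reads from 41.3% to 30.2% and 19.4% for Tph1, from 51.4% to 43.75% and 38.03% for Tph2, from 100% to 98.75% and 97.3% for Cish and from 98.4% to 94.2% and 91.96% for Fmo1.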
